A study of Mus musculus with 8 samples.

Results

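Transcripts of 10 genes that set the G1 decision point of the cell cycle were followed in mouse ovarian granulosa cells, which enclose and nourish the oocyte. They are the D cyclins Ccnd1, Ccnd2 and Ccnd3, their kinases Cdk4 and Cdk6, the CDK inhibitors Cdkn1a, Cdkn1b, Cdkn1c and Cdkn2c, and the retinoblastoma gene Rb1. They were taken by symbol from a table of 23235 genes, and all 10 were found and passed the filter on low values. Granulosa cell RNA from female C57BL/6 mice had been sequenced in 8 libraries in 4 groups of 2: CNOT6/6L knockout (KO) and wild type (WT), each 44 h after PMSG, which stimulates follicle growth as FSH does, or without treatment (0 h). The source names write the KO as Cnot66l DKO. Cnot6 and Cnot6l encode deadenylase subunits of the CCR4-NOT complex, which shortens mRNA poly(A) tails. The sources used here do not give the promoter driving any Cre, the age of the animals, the PMSG dose or whether animals were pooled. Whether replicates were separate animals is not stated, and p-values then reflect the spread between these libraries alone, which may be technical.

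D cyclins bind CDK4 or CDK6, and the active kinase phosphorylates RB1, which then releases E2F transcription factors and lets the cell enter S phase. CDKN1A (p21), CDKN1B (p27) and CDKN1C (p57) form the CIP/KIP family, which binds cyclin-CDK complexes, whereas CDKN2C (p18) belongs to the INK4 family, which binds CDK4 and CDK6 themselves. In the mouse ovary cyclin D2 is the D cyclin on which FSH-driven granulosa cell proliferation depends, and p27 is known for its part in cell cycle exit during luteinization.

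Levels are FPKM, fragments corrected for the length of the transcript and the size of the library, and so can be compared between genes. Granulosa markers were present throughout: Inha, an inhibin subunit, was between 8434 and 23238 FPKM, and the FSH receptor gene Fshr between 33.6 and 154 FPKM, over the 8 libraries. RNA of oocytes was present too, with the oocyte gene Gdf9 between 228 and 1200 FPKM. The sum of 14 oocyte markers was 5688 and 5112 FPKM in 0 h KO and 2120 and 3537 FPKM in 0 h WT. At 0 h 14 of 14 were higher in KO without overlap, where 27.3% of all genes were above. The part of oocyte RNA in the 0 h genotype differences below was not tested. The first KO library at 44 h stood apart. The sum of 8 luteinizing markers was 2758 FPKM there and 11180.1 FPKM in the second KO library, against 12044 and 14149 in 44 h WT. Its Cnot6 level, 26.7 FPKM, lay between those of the WT libraries at 44 h (26.0 and 26.9), whereas the second KO library had 17.4, and it is called the library labelled KO replicate 1 below. Cnot6l was 2.01 and 1.61 FPKM in 44 h KO and 4.2 and 2.63 in 44 h WT. At 0 h Cnot6 was 11.7 and 12 FPKM in KO and 29.1 and 18.4 FPKM in WT, and Cnot6l was 4.69 and 1.97 FPKM in KO and 6.11 and 7.07 FPKM in WT, so that neither gene overlapped between genotypes at 0 h. Between the 2 KO libraries at 44 h, 11.2% of the 13688 genes tested were at least 2-fold apart in FPKM + 1, against 2.79% in 44 h WT, 3.16% in 0 h KO and 2.32% in 0 h WT. The relative sequencing depth of the libraries, estimated from the smallest steps in the FPKM values, was 0.904 to 1.25 times that of the median library.

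**Figure D1:**
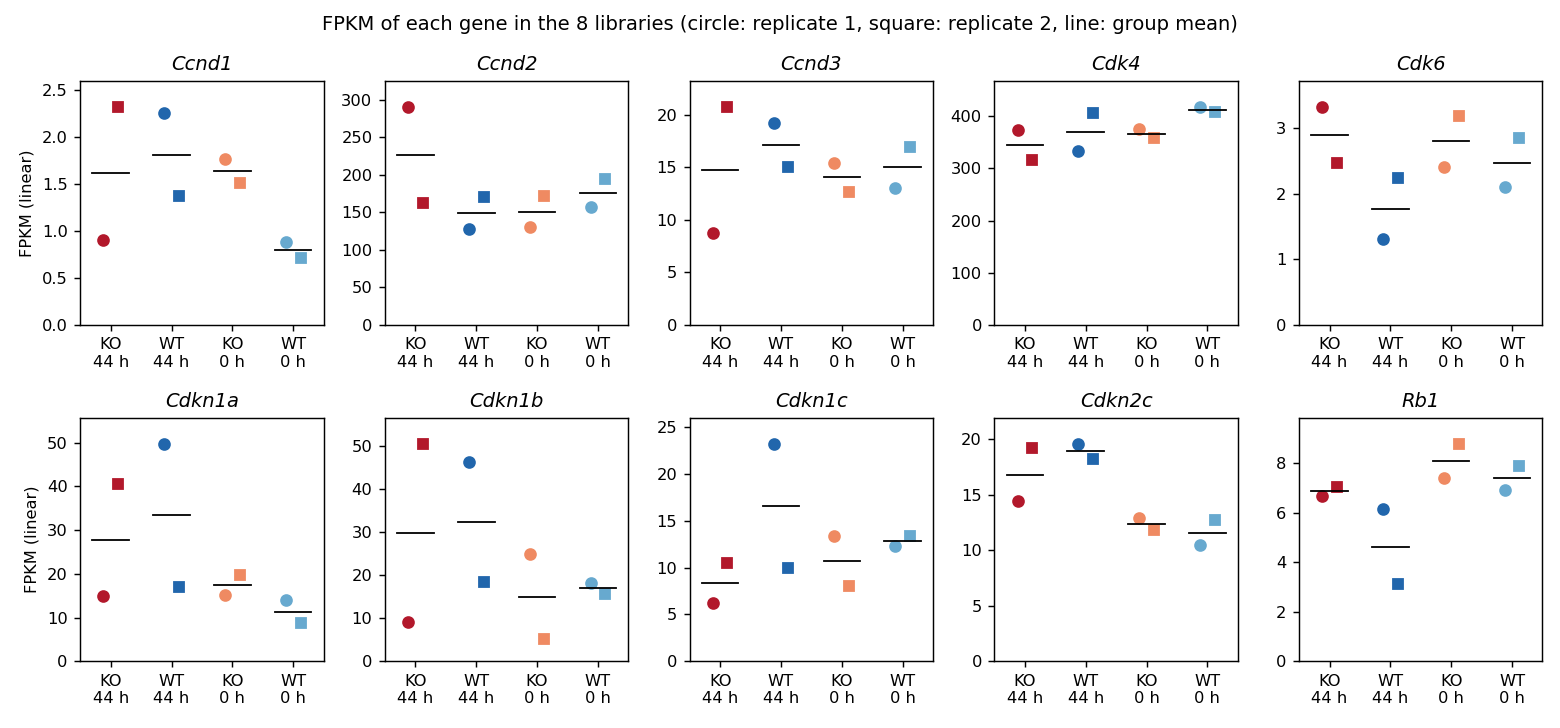
FPKM (linear axis from 0) of each of the 10 genes in the 8 libraries, by group; circles are replicate 1, squares replicate 2 and lines group means. Cdkn1a and Cdkn1b each have one high library in 44 h KO (replicate 2) and one in 44 h WT (replicate 1), whereas both Cdkn2c libraries at 44 h lie above those at 0 h in each genotype.

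Ccnd2 was the main D cyclin transcript in every library. In replicate order it was 290.4 and 163 FPKM in 44 h KO and 127 and 171 FPKM in 44 h WT. At 0 h it was 130.1 and 172 FPKM in KO and 158 and 194 FPKM in WT. The groups overlapped in each of these comparisons, and the highest value by far was that of the library labelled KO replicate 1. Differences are given on the log2(FPKM + 1) scale from a limma fit over all genes, with the standard error (SE) of that fit and p-values corrected over the 13688 genes tested (Benjamini-Hochberg). For Ccnd2 the difference between KO and WT at 44 h was 0.56 (SE 0.31, limma adjusted p = 0.575, 95% interval -0.17 to 1.28), and it was 0.14 without the library labelled KO replicate 1, 0.97 (adjusted p = 0.0768) without 44 h KO replicate 2 and 0.35 without 44 h WT replicate 1. The 44 h minus 0 h difference of Ccnd2 was 0.54 in KO (adjusted p = 0.361) and -0.25 in WT (adjusted p = 0.653). With 1 library left out it ranged from 0.12, without the library labelled KO replicate 1, to 0.95, without 44 h KO replicate 2, in KO. In WT it ranged from -0.46, without 44 h WT replicate 2, to -0.035, without 44 h WT replicate 1. The difference between these 2 PMSG differences was 0.78 (SE 0.44, adjusted p = 1.00), and it was 0.36 without the library labelled KO replicate 1 and 1.20 without 44 h KO replicate 2.

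Ccnd3 was the next D cyclin in level and Ccnd1 the lowest. Ccnd3 was 8.76 and 20.7 FPKM in 44 h KO and 19.2 and 15.0 FPKM in 44 h WT, and 15.4 and 12.6 FPKM in 0 h KO and 13.1 and 16.9 FPKM in 0 h WT. All 4 groups overlapped with each other, the library labelled KO replicate 1 being lowest and 44 h KO replicate 2 highest. Ccnd1, a D cyclin induced by mitogens in many cells, was 0.905 and 2.31 FPKM in 44 h KO and 2.25 and 1.37 FPKM in 44 h WT. At 0 h Ccnd1 was 1.77 and 1.5 FPKM in KO and 0.883 and 0.712 FPKM in WT, so that both KO libraries lay above both WT libraries. That difference was 0.55 (SE 0.31) and did not pass the test (adjusted p = 0.637). In WT, Ccnd1 at 44 h lay above 0 h in both libraries (0.63, SE 0.31, adjusted p = 0.26), by 0.40 without 44 h WT replicate 1. The difference in PMSG response between genotypes was -0.70 (adjusted p = 1.00), or -0.30 without the library labelled KO replicate 1 and -1.09 without 44 h KO replicate 2. At FPKM near 1 this scale understates fold changes, and with a pseudocount of 0.1 in place of 1 the Ccnd1 differences were 0.95 between genotypes at 0 h and 1.06 for 44 h against 0 h in WT. Ccnd2 made up 96.8% and 87.6% of the summed D cyclin FPKM in 44 h KO, 85.6% and 91.2% in 44 h WT, 88.3% and 92.4% in 0 h KO, and 91.9% and 91.7% in 0 h WT.

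**Figure D2:**
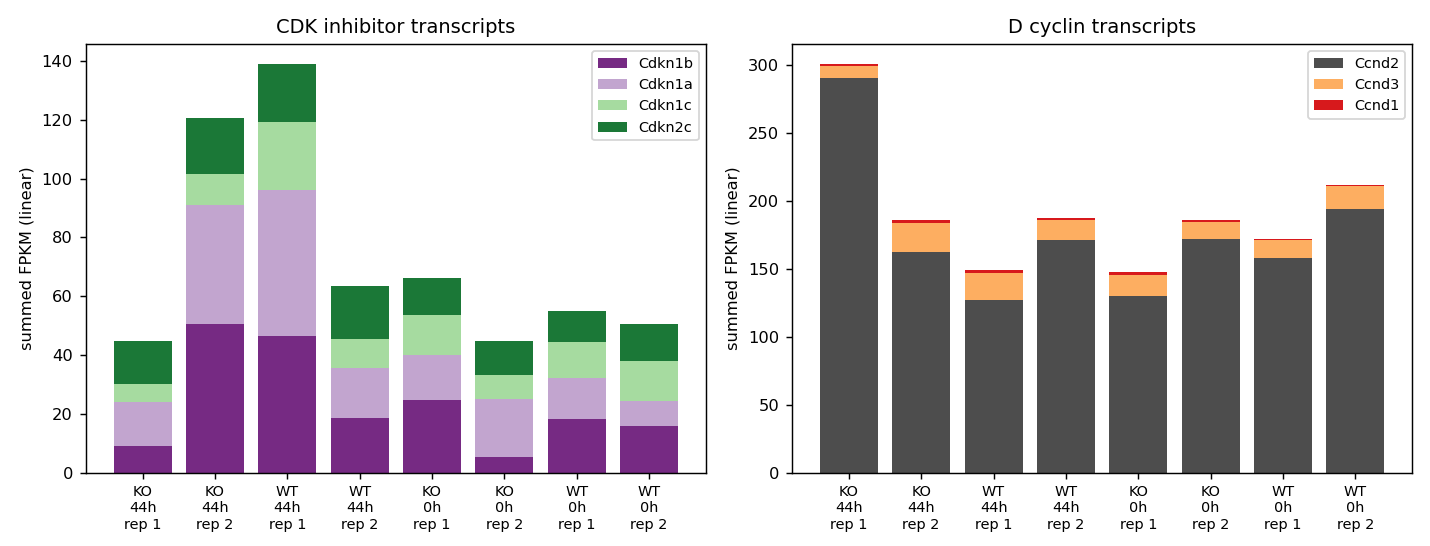
Summed FPKM (linear axes from 0) of 4 CDK inhibitor genes (left) and the 3 D cyclin genes (right) in each library, stacked by gene. The inhibitor sum is highest in KO replicate 2 (121) and WT replicate 1 (139) at 44 h, and the D cyclin sum is highest in the library labelled 44 h KO replicate 1 (300.1).

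Cdk4 was the most abundant of the 10 transcripts and varied least. It was 373 and 317 FPKM in 44 h KO and 333 and 406 FPKM in 44 h WT. At 0 h Cdk4 was 376 and 357 FPKM in KO and 418 and 408 FPKM in WT. The lowest and highest of the 8 libraries were 1.32 times apart, and the WT libraries at 0 h were the highest pair. Both KO libraries lay below both WT libraries at 0 h (-0.17, SE 0.17, adjusted p = 0.829), with a 95% interval of -0.56 to 0.22. WT at 44 h also lay below WT at 0 h (-0.16, SE 0.17, adjusted p = 0.575, 95% interval -0.56 to 0.23), but this value was -0.022 without 44 h WT replicate 1, -0.31 without 44 h WT replicate 2 and -0.022 after median-of-ratios scaling. That scaling moved the median difference of all genes tested to -0.011 in WT, against -0.13 without it, so Cdk4 lay near the median gene under both. Exons of Cdk4 overlap those of Tspan31 on the other strand, a gene at 168 to 279.8 FPKM in this table, and whether counting used strand is not given in the sources used here. Exons of Ccnd3 likewise overlap Bysl (11.8 to 16.3 FPKM) and those of Rb1 overlap Rcbtb2 (26.5 to 41.4 FPKM). Annotated transcripts on the other strand also overlap exons of Ccnd1, Ccnd2, Cdk6, Cdkn1a and Cdkn1c, and without strand their reads cannot be told apart from those of the 10 genes.

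Cdk6, the other D cyclin partner, was much lower. It was 3.33 and 2.46 FPKM in 44 h KO and 1.30 and 2.25 FPKM in 44 h WT, and 2.42 and 3.19 FPKM in 0 h KO and 2.1 and 2.86 FPKM in 0 h WT. The groups did not overlap at 44 h, with KO above WT (0.50, SE 0.26, adjusted p = 0.554), and the difference was 0.34 without the library labelled KO replicate 1 and 0.25 without 44 h WT replicate 1. Cdk4 thus supplied 99.1% to 99.6% of the summed Cdk4 and Cdk6 FPKM in each library.

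The CIP/KIP inhibitors Cdkn1b and Cdkn1a varied most of the 10 genes, and much of that spread lay between libraries of a group. Cdkn1b (p27) was 9.12 and 50.5 FPKM in 44 h KO and 46.4 and 18.4 FPKM in 44 h WT, and 24.8 and 5.25 FPKM in 0 h KO and 18.2 and 15.7 FPKM in 0 h WT. Its lowest and highest libraries, both KO, were 9.63 times apart. Within groups, the higher Cdkn1b library was 5.54 times the lower in 44 h KO, 2.52 times in 44 h WT, 4.74 times in 0 h KO and 1.16 times in 0 h WT. Cdkn1a (p21), also a p53 target, was 14.9 and 40.5 FPKM in 44 h KO and 49.7 and 17.0 FPKM in 44 h WT, and 15.3 and 19.7 FPKM in 0 h KO and 14.0 and 8.80 FPKM in 0 h WT. The same 2 libraries, 44 h KO replicate 2 and 44 h WT replicate 1, were thus the highest for Cdkn1a and Cdkn1b. Cdkn1c (p57), an imprinted gene, was 6.23 and 10.5 FPKM in 44 h KO and 23.2 and 9.94 FPKM in 44 h WT, and 13.3 and 8.09 FPKM in 0 h KO and 12.3 and 13.3 FPKM in 0 h WT. It too was highest in 44 h WT replicate 1, but 44 h KO replicate 2 lay inside the range of the other libraries.

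None of the CIP/KIP differences passed the test, and single libraries moved most of them. The 44 h minus 0 h difference of Cdkn1a in WT was 1.32 (SE 0.59, adjusted p = 0.227), with both libraries at 44 h above both at 0 h, and it was 0.57 without 44 h WT replicate 1 and 2.06 without 44 h WT replicate 2. In KO the difference of Cdkn1a was 0.48 (adjusted p = 0.673), 1.18 without the library labelled KO replicate 1, -0.21 without 44 h KO replicate 2 and 0.31 without 0 h KO replicate 1. For Cdkn1b the 44 h minus 0 h difference was 0.85 in KO (SE 0.91, adjusted p = 0.625) and 0.76 in WT (SE 0.91, adjusted p = 0.637). The KO value was 2.02 without the library labelled KO replicate 1, -0.33 without 44 h KO replicate 2, 1.87 without 0 h KO replicate 1 and -0.18 without 0 h KO replicate 2, and the WT value was 0.12 without 44 h WT replicate 1 and 1.40 without 44 h WT replicate 2. Between genotypes at 44 h the differences were -0.24 for Cdkn1a, -0.41 for Cdkn1b and -0.84 for Cdkn1c (adjusted p = 0.897, 0.888 and 0.553). Without the library labelled KO replicate 1 they were 0.46, 0.76 and -0.50, and without 44 h WT replicate 1 they were 0.51, 0.23 and -0.27. Without 44 h KO replicate 2 they were -0.93, -1.58 and -1.17, and without 44 h WT replicate 2 they were -0.98, -1.05 and -1.41. The Cdkn1c groups overlapped, as 44 h KO replicate 2 (10.5 FPKM) lay above 44 h WT replicate 2 (9.94 FPKM). Its differences ran from -1.41 to -0.27 with a library left out. Each removal left the lowest KO or the highest WT library at 44 h in place, so the shared sign does not measure stability. At 0 h KO lay above WT in both libraries for Cdkn1a (0.60, SE 0.59, adjusted p = 0.834), by 0.91 without 0 h WT replicate 1 and 0.29 without 0 h WT replicate 2. The Cdkn1b difference at 0 h was -0.50 (SE 0.91, adjusted p = 0.927), or -1.52 without 0 h KO replicate 1 and 0.53 without 0 h KO replicate 2. The Cdkn1a difference in PMSG response between genotypes was -0.84 (SE 0.83, adjusted p = 1.00). It was -0.14 without the library labelled KO replicate 1 and -0.088 without 44 h WT replicate 1, against -1.53 without 44 h KO replicate 2, -1.58 without 44 h WT replicate 2 and -0.53 without 0 h WT replicate 2.

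The sequence before the start of Cdkn1b and Cdkn1a is shown because these genes had their highest values in the same 2 libraries. Promoter windows were given in the RefSeq table (GRCm38.p6) for 6 of the 10 genes, with 9 windows, cut here to the 250 bases before the start. They were searched on both strands for GGGCGG (GC box, an SP1 site), CCAAT (NF-Y), TGACG (cyclic AMP response element half-site), CACGTG (E-box), TGTTTAC (forkhead core), and TTTCGCGC and TTTGGCGC (E2F). Capitals mark these matches, and the lines run 5′ to 3′ on the gene's strand, which is plus for both genes. The Cdkn1b window is chr6:134920151-134920400 and the Cdkn1a windows, one for each listed start, are chr17:29093519-29093768 and chr17:29090729-29090978.
Cdkn1b: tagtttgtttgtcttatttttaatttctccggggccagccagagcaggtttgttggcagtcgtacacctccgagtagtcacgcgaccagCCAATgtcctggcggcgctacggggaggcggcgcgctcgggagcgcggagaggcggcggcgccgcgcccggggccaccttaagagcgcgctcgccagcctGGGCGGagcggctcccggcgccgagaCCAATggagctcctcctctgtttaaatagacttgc
Cdkn1a, downstream start: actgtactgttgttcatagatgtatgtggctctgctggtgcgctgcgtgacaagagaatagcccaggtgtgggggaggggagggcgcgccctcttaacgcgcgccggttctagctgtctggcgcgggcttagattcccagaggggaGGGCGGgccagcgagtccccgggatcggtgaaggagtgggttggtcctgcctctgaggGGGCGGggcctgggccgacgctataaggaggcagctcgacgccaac
Cdkn1a, upstream start: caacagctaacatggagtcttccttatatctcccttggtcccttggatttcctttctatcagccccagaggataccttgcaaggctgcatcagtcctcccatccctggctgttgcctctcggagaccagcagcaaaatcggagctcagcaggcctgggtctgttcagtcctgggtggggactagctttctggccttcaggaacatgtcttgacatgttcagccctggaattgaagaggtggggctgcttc
The Cdkn1b window held 1 GC box and 2 CCAAT boxes, the downstream Cdkn1a window held 2 GC boxes, and the upstream one held no match. GC boxes, the only motif searched for that both genes held, were in 32.7% of all 32851 promoter windows of this length, so the letters shared by the 2 genes are common ones. CCAAT boxes, found for Cdkn1b but not for Cdkn1a, were in 33.8%. The Cdk4 window held 4 E-boxes, a motif present in 6.02% of windows.

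Cdkn2c (p18) was the one gene of the 10 whose libraries separated the times in both genotypes upwards. Of all genes tested, 14.3% lay above without overlap in KO and 22.5% in WT. In replicate order, the Cdkn2c values follow. It was 14.4 and 19.1 FPKM in 44 h KO, against 12.8 and 11.8 FPKM in 0 h KO, and 19.6 and 18.2 FPKM in 44 h WT, against 10.5 and 12.7 FPKM in 0 h WT. The difference was 0.41 in KO (SE 0.20, adjusted p = 0.287) and 0.67 in WT (SE 0.20, unadjusted p = 0.011, adjusted p = 0.121, 95% interval 0.21 to 1.13). Neither passed the test. Without the library labelled KO replicate 1 the adjusted p in WT was 0.0535, and without 44 h KO replicate 2 it was also 0.0535. The KO difference was 0.21 without 44 h KO replicate 2. Removing 44 h KO replicate 2 and 44 h WT replicate 1 together, an alternative added after seeing the data, left 0.21 in KO and 0.62 in WT. Of the other INK4 genes, Cdkn2b (p15) was 0.534 and 5.07 FPKM in 44 h KO, 2.74 and 2.97 in 44 h WT, 1.40 and 0.908 in 0 h KO and 0.667 and 0.471 in 0 h WT. Its 44 h minus 0 h difference was 1.30 in WT (adjusted p = 0.217), and the same difference passed the test without the library labelled KO replicate 1 (adjusted p = 0.0199) and without 44 h KO replicate 2 (adjusted p = 0.0200).

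Rb1, the substrate that the D cyclin kinases inactivate, was 6.67 and 7.05 FPKM in 44 h KO, against 7.41 and 8.78 FPKM in 0 h KO, and 6.13 and 3.12 FPKM in 44 h WT, against 6.92 and 7.87 FPKM in 0 h WT. Both libraries at 44 h lay below both at 0 h in each genotype, as they did for 34.1% of all genes tested in KO and 40.6% in WT. For Rb1, 44 h WT replicate 2 was the lowest of all. The difference was -0.21 in KO (SE 0.28, adjusted p = 0.705) and -0.63 in WT (SE 0.28, adjusted p = 0.223), and the WT value was -1.02 without 44 h WT replicate 1 and -0.23 without 44 h WT replicate 2. The KO value was -0.31 without 0 h KO replicate 1, -0.098 without 0 h KO replicate 2, -0.034 after quantile normalization and -0.067 after median-of-ratios scaling. At 44 h KO lay above WT in both libraries (0.54, SE 0.28, adjusted p = 0.554), and the difference was 0.57 without the library labelled KO replicate 1, 0.93 without 44 h WT replicate 1 and 0.14 without 44 h WT replicate 2.

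**Figure D3:**
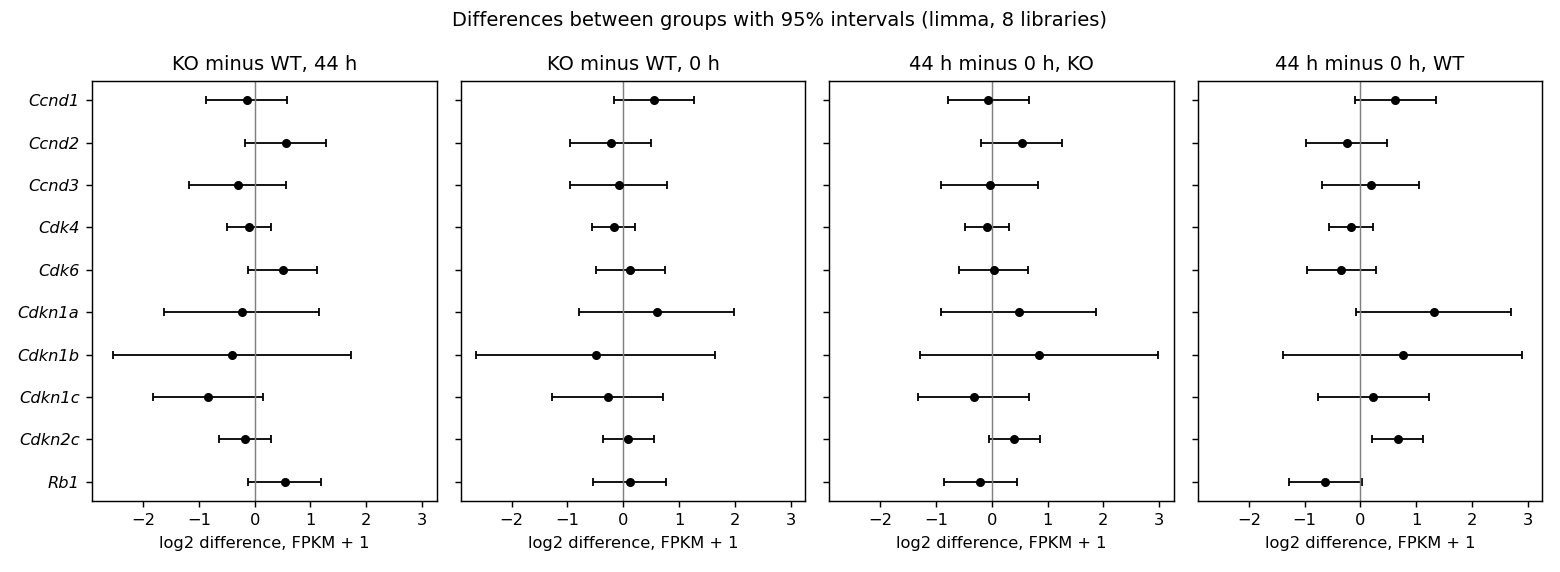
Difference on the log2(FPKM + 1) scale for each gene (rows) in 4 comparisons (panels); points are limma estimates over 8 libraries and bars 95% intervals. The intervals of Cdk4 are the narrowest (within -0.56 to 0.30) and those of Cdkn1b the widest, and all include 0 except that of Cdkn2c for 44 h minus 0 h in WT (0.21 to 1.13).

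Counted over the set, limma called 0 of the 10 genes at an adjusted p under 0.05 in each of 5 comparisons, and 1 gene, Cdkn2c in WT, had an unadjusted p under 0.05. Over all genes tested, 0.0219% were called for KO against WT at 44 h, 0.0365% for KO against WT at 0 h, 0.139% for 44 h against 0 h in KO, 0.0804% for 44 h against 0 h in WT and 0.0438% for the difference in PMSG response. At an unadjusted p under 0.05 these shares were 9.79%, 9.69%, 21.1%, 24.1% and 1.82%. Without the library labelled 44 h KO replicate 1 none of the 10 was called either, where the shares of all genes were 0.0511%, 0.0584%, 8.54%, 9.74% and 0.0804% in the same order. Without 44 h KO replicate 2 none was called against shares of 5.85%, 0.0584%, 0.234%, 9.72% and 0.57%. With only the groups compared in the fit, none was called against 0.0438%, 0.0511%, 0.0658% and 6.9% for the first 4 comparisons. Groups that did not overlap were found for 2 of the 10 genes with KO above WT at 44 h (background 23.9%) and none below (15.1%). At 0 h they were 2 above (27.3%) and 1 below (19.1%). For 44 h against 0 h they were 1 above (14.3%) and 1 below (34.1%) in KO, and 4 above (22.5%) and 2 below (40.6%) in WT. The median difference of the 10 genes for 44 h against 0 h was -0.0038 in KO and 0.21 in WT, where that of all genes tested was -0.11 in KO and -0.13 in WT.

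Within groups the picture was different from gene to gene. On the FPKM + 1 scale, 3 of the 10 genes were at least 2-fold apart between the KO libraries at 44 h (Cdkn1a, Cdkn1b and Ccnd3; in plain FPKM also Ccnd1, whose libraries were 2.56 times apart) and 3 between the WT libraries at 44 h (Cdkn1a, Cdkn1b and Cdkn1c). There was 1 in 0 h KO (Cdkn1b) and 0 in 0 h WT. The summed FPKM of the 4 inhibitors was 44.6 and 121 in 44 h KO and 139 and 63.6 in 44 h WT, and 66.3 and 44.8 in 0 h KO and 55.0 and 50.5 in 0 h WT. Per summed D cyclin FPKM the inhibitors were 0.149 and 0.650 in 44 h KO and 0.934 and 0.340 in 44 h WT, and 0.450 and 0.241 in 0 h KO and 0.320 and 0.239 in 0 h WT. The library labelled 44 h KO replicate 1 therefore had the most D cyclin and the lowest inhibitor share of the 8, and the ratio of the groups at 44 h overlapped.

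Some marker lists of other cell types were high in the libraries with more Cdkn1b, and others were not. The sum of 7 oviduct and ciliated cell markers, which include the oviductal glycoprotein gene Ovgp1, was 5.42 and 311 FPKM in 44 h KO and 376 and 8.19 FPKM in 44 h WT, and 67.7 and 9.0 FPKM in 0 h KO and 3.81 and 13.3 FPKM in 0 h WT. The 3 libraries with the highest sums were the 3 with the most Cdkn1b. Ovgp1 alone made up most of those sums, at 279 FPKM in 44 h KO replicate 2, 366 in 44 h WT replicate 1 and 61.2 in 0 h KO replicate 1. The sums therefore follow mainly this gene. Of the ciliated cell genes, in replicate order, Ccdc78 was 1.92 and 9.61 FPKM in 44 h KO, and Foxj1 was 0.134 and 2.65. In 44 h WT Ccdc78 was 1.24 and 1.30 FPKM, and Foxj1 was 0.622 and 0.138. Ccdc78 was the only marker of this list that was not higher in 44 h WT replicate 1 than in replicate 2. In the library of the pair with more Cdkn1b, 7 of 7 of these markers were higher in 44 h KO, 6 of 7 in 44 h WT, 6 of 7 in 0 h KO and 3 of 7 in 0 h WT; Wfdc2 was listed at 0 in the library labelled KO replicate 1. Endothelial markers summed to 24.0 and 81.0 FPKM in 44 h KO and 51.1 and 57.2 FPKM in 44 h WT, and at 44 h were higher in the library with more Cdkn1b for 10 of 10 genes in KO and 2 of 10 in WT. At 0 h this held for 7 of 10 endothelial markers in KO and 2 of 10 in WT. Immune markers summed to 426 and 473 FPKM in 44 h KO and 325 and 234 FPKM in 44 h WT, and to 931 and 167 FPKM in 0 h KO and 244 and 219 FPKM in 0 h WT, so that 0 h KO replicate 1, the higher Cdkn1b library of its pair, was also the highest in immune markers. Of 10 immune markers, 6 were higher in the library with more Cdkn1b in 44 h KO, 10 in 44 h WT, 10 in 0 h KO and 8 in 0 h WT. In the library of the pair with more Cdkn1b, 8 of 8 luteinizing markers were higher in 44 h KO, 3 of 8 in 44 h WT, 6 of 8 in 0 h KO and 7 of 8 in 0 h WT, and their sum was high in both 44 h WT libraries. Surface epithelium markers were higher there in 9 of 10, 5 of 10, 10 of 10 and 6 of 10 in the same order of groups, and theca and stroma markers in 9, 6, 8 and 2 of 10. Oocyte markers were higher there in 0 of 14, 7 of 14, 13 of 14 and 0 of 14. The part of these cells in the Cdkn1a and Cdkn1b levels was not tested, and in bulk RNA fewer cells of a type and less RNA per cell cannot be told apart.

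**Figure D4:**
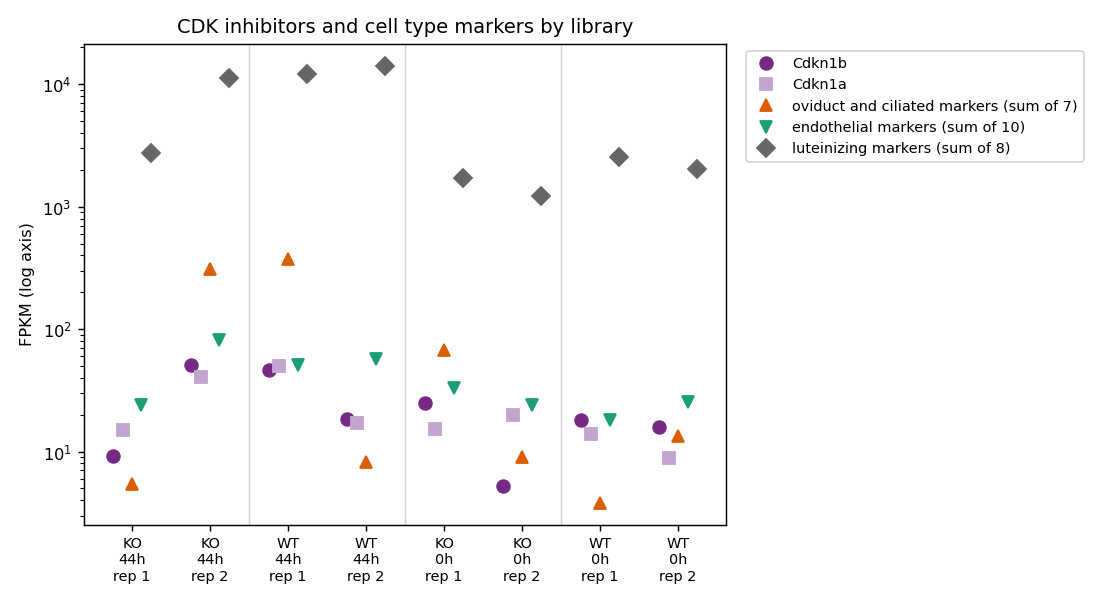
FPKM (log axis) of Cdkn1b and Cdkn1a and the summed FPKM of 3 marker lists in each of the 8 libraries. Oviduct and ciliated markers are highest in KO replicate 2 (311) and WT replicate 1 (376) at 44 h, the libraries with the highest Cdkn1b (50.5 and 46.4) and Cdkn1a (40.5 and 49.7), whereas luteinizing markers are high in both WT libraries at 44 h. Most of the oviduct and ciliated sum in these 2 libraries is Ovgp1 (279 and 366).

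Genes with a profile closest to the most variable members were sought among 7969 named genes of at least 5 FPKM on average. Likeness was the root mean square difference of log2(FPKM + 1), centred per gene, over the 8 libraries. Closest to Cdkn1b were Tmsb4x (0.32), Gbp2 (0.39) and Vim (0.40), where Cdkn1b itself had a spread of 0.96 on the same scale. Tmsb4x, an actin-binding thymosin, was 378 and 1281 FPKM in 44 h KO and 1406 and 796 FPKM in 44 h WT, and 843 and 294 FPKM in 0 h KO and 484 and 436 FPKM in 0 h WT. Vim, an intermediate filament gene of mesenchymal cells, was 16.0 and 66.0 FPKM in 44 h KO and 73.5 and 58.9 FPKM in 44 h WT. Closest to Cdkn1a were Far1 (0.30), Etv6 (0.30) and Rbm47 (0.32) against its own spread of 0.74, and closest to Cdkn1c were Arhgef3 (0.17), Rtn4 (0.20) and Arf3 (0.22) against 0.48.

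Downstream of the D cyclins, the lists chosen for the pathway held no called gene in the fit of 8 libraries. Of 18 E2F targets, 11 had lower values at 44 h than at 0 h in KO (median -0.14, 6 without overlap, where 34.1% of all genes were below), against 18 in WT (median -0.58, 17 without overlap, where 40.6% were below). Without the library labelled KO replicate 1, 16 of 18 were lower in KO (median -0.23, where that of all genes tested was -0.10). Oocyte markers were lower at 44 h in 14 of 14 without overlap in each genotype (medians -1.29 in KO and -1.22 in WT), and their part in the E2F target values was not tested. Mcm6, a subunit of the replication helicase, was 158 and 109.9 FPKM in 44 h KO, against 148 and 179 in 0 h KO, and 91.4 and 111 in 44 h WT, against 165 and 192 in 0 h WT. The WT difference was -0.82 (limma adjusted p = 0.111, or 0.0353 without the library labelled KO replicate 1). Between genotypes at 44 h, 17 of the 18 lay higher in KO than in WT (median 0.38, 12 without overlap, where 23.9% of all genes were above), and the median of all genes tested was 0.046. The library labelled KO replicate 1 led this contrast: relative to the 0 h WT mean, the median E2F target was at -0.062 there and at -0.44 in 44 h KO replicate 2, against -0.71 and -0.50 in 44 h WT. Without that library 15 of 18 lay higher in KO (median 0.19), none was called, and Mcm6 was 0.13 higher. Of 10 proliferation markers, 10 lay higher in KO than in WT at 44 h (median 0.42, 9 without overlap), and 9 without the library labelled KO replicate 1 (median 0.31). Of the 12 pocket protein and E2F genes, 9 were lower at 44 h in KO (median -0.19) and 12 in WT (-0.34). Rbl1 (p107), a relative of Rb1, was 25.2 and 16.6 FPKM in 44 h KO and 13.0 and 10.3 FPKM in 44 h WT (0.77, adjusted p = 0.494), and the difference was 0.48 (adjusted p = 0.707) without the library labelled KO replicate 1 and 1.06 (adjusted p = 0.0387) without 44 h KO replicate 2. E2f5 was 88.4 and 65.5 FPKM in 44 h KO and 52.7 and 43.9 FPKM in 44 h WT (0.65, adjusted p = 0.497), or 0.44 (adjusted p = 0.770) without the library labelled KO replicate 1. Oocyte markers lay on the same side: their sum was 2765 and 1669 FPKM in 44 h KO and 1139 and 1169 FPKM in 44 h WT, and the part of oocyte RNA in these differences was not tested.

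Cyclin E, cyclin A and CDK2, which act after RB1, were lower at 44 h in 5 of 5 genes in each genotype (medians -0.29 in KO and -0.35 in WT). The median of all genes tested was also below 0, at -0.11 in KO and -0.13 in WT. Ccne2 was 13.7 and 14.2 FPKM in 44 h KO, against 16.5 and 28.4 in 0 h KO, and 11 and 11.6 in 44 h WT, against 23.1 and 19.3 in 0 h WT, with a WT difference of -0.84 (adjusted p = 0.126). The CDK-activating kinase genes were lower at 44 h in 3 of 3 in each genotype (medians -0.24 in KO and -0.32 in WT). Oocyte markers were lower at 44 h as well, and their part in the values of these lists was not tested. Among 10 genes for turnover of p27 and cyclins, 5 were lower at 44 h in KO and 6 in WT. Skp2, the F-box protein that targets p27, was 15.8 and 19.9 FPKM in 44 h KO, against 19.2 and 24.8 in 0 h KO, and 15.6 and 17.4 in 44 h WT, against 24.1 and 21.4 in 0 h WT (WT difference -0.44, adjusted p = 0.226).

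Upstream regulators of these genes were read from a list of FOXO, MYC and AP-1 factors, of which 9 of 11 were tested. Foxo1, which in granulosa cells is held in check by FSH signalling and activates Cdkn1b in many cells, was 57.5 and 52.6 FPKM in 44 h KO, against 77.1 and 96.8 in 0 h KO, and 60.7 and 67.1 in 44 h WT, against 119 and 106 in 0 h WT. Its 44 h groups lay below those at 0 h without overlap in each genotype, as did 34.1% of all genes tested in KO and 40.6% in WT. The WT difference of Foxo1 was -0.80 (SE 0.17, adjusted p = 0.0918). Of 11 p53 pathway genes, 6 were higher at 44 h in KO and 4 in WT (medians 0.0071 and -0.18). Mdm2, another p53 target, was 24.2 and 31.8 FPKM in 44 h KO and 31.8 and 30.0 FPKM in 44 h WT, and 38.2 and 42.3 FPKM in 0 h KO and 34.3 and 36.1 FPKM in 0 h WT. At 44 h the libraries with the most Cdkn1a were also the highest in Mdm2, by a small margin over WT replicate 2, and all 4 libraries at 44 h lay below all 4 at 0 h. Btg2, an antiproliferative p53 target, was 22.6 and 37.1 FPKM in 44 h KO, against 16.6 and 11.3 in 0 h KO, and 28.1 and 21.2 in 44 h WT, against 11.9 and 11.5 in 0 h WT (WT difference 1.01, adjusted p = 0.119, or 0.0435 without the library labelled KO replicate 1).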

How the data were processed

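RNA of granulosa cells was sequenced in 8 libraries. The authors deposited FPKM values in 1 table, a column per library, per the file headers. Per the submitters' processing notes, which give neither roles nor order, the tools were TopHat2 2.1.1 and Cufflinks 2.2.1 and the build mm9. The sources used here name no annotation or filter. FPKM are not counts, so no count model was used, and no gene of the 10 was at 0 in any library. Tests used log2(FPKM + 1), which understates changes of low genes, for the 13688 of 23235 genes that reached 1 FPKM in 2 or more libraries. Group means were fitted over the 8 libraries in R 4.3.3 with limma 3.58.1 (trended empirical Bayes, two-sided tests, 4 residual degrees of freedom). Adjustment was across the genes tested (Benjamini-Hochberg), and genes were called under 0.05. The script was tested on simulated data. The members, gene lists and rules were chosen with earlier results of these data known. All 10 members were named, and of each pathway list up to 4 genes with the smallest p per comparison; which of these are described was decided with their values in view. Alternatives covered the pseudocount (0.1 and 5), filter, scaling, replicate block, robust fit, groups fitted and libraries left out. No deviation shared by libraries with the same replicate number was seen over all genes tested together. Promoter windows came from RefSeq (GRCm38.p6), and overlapping exons from GENCODE M21 (GRCm38), used for names alone since the files name mm9.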

Additional observations from a re-analysis of the deposited data

How the results depend on the processing

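None of the 10 genes was called by limma in any of 99 counts, over 5 comparisons and their alternatives, and the lowest adjusted p was 0.0535 (Cdkn2c, 44 h against 0 h in WT). Of 468 alternative values for the 25 differences printed for the 10 genes, 458 kept their direction and 10 had the opposite sign, all of them with libraries left out. The filter, replicate block, robust fit and choice of groups fitted left each difference as it was, as did removal of a library outside the comparison. The direction of those values was therefore fixed in advance, and the count of 458 does not measure stability. Leaving out each library in turn gave -1.52 to 0.53 for Cdkn1b between genotypes at 0 h, -0.98 to 0.51 for Cdkn1a and -1.58 to 0.76 for Cdkn1b between genotypes at 44 h, and -0.21 to 1.18 for Cdkn1a and -0.33 to 2.02 for Cdkn1b for 44 h against 0 h in KO. Without KO replicate 2 and WT replicate 1 at 44 h together, an alternative added after seeing the data, the last 2 were -0.21 and -0.33.

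Counts of called genes over the whole table moved more. For KO against WT at 0 h the count was 5, and 37 with no filter, 8 with robust empirical Bayes, 3 with a replicate block with crossed numbers in KO at 44 h, and 3 to 9 with a library left out. For KO against WT at 44 h it was 3, and 27 with no filter, 6 with only the groups compared, 30 without those 2 libraries together and 2 to 801 with a library left out, the highest without KO replicate 2 at 44 h. For 44 h against 0 h in WT it was 11, and 32 with no filter, 7 after quantile normalization, 30 after median-of-ratios scaling, 7 with a replicate block, 34 with robust empirical Bayes, 945 with only the groups compared, 156 without those 2 libraries and 4 to 1333 with a library left out, 1330 or more without either KO library at 44 h. For 44 h against 0 h in KO it was 19, and 10 with a pseudocount of 0.1, 8 with a pseudocount of 5, 45 with no filter, 6 with a replicate block, 35 with robust empirical Bayes, 9 with only the groups compared and 3 to 1169 with a library left out, the highest without the library labelled KO replicate 1. For the difference in PMSG response it was 6, and 41 with no filter, 23 without those 2 libraries and 6 to 78 with a library left out. Genes of the pathway lists were refitted only without either KO library at 44 h, an alternative added after seeing the data. The cause of these shifts was not tested. Differences between replicate 1 and replicate 2 of a group correlated at -0.11 to -0.0068 between groups, so no deviation shared by replicate number was seen over all genes together. Whether libraries with the same number were prepared together is not stated, and these correlations cannot decide it. Single genes need not follow, as with Fos and Jun, named here with their values in view. In replicate order Fos was 189 and 17.3 FPKM in 44 h KO and 104 and 28.9 in 0 h KO. Jun was 73.5 and 19.3 FPKM in 44 h KO and 68.0 and 11.8 in 0 h KO. In WT Fos was 15.8 and 15.2 FPKM at 44 h and 34.0 and 42.0 at 0 h. Jun in WT was 28.7 and 16.8 FPKM at 44 h and 12.7 and 18.3 at 0 h. None of the 10 genes was called with or without the block. Crossing the numbers of KO at 44 h gave 3 calls for KO against WT at 44 h and 27 for 44 h against 0 h in KO. The 2 libraries per group limit what any of these comparisons can show.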
